A study of Mus musculus with 6 samples.

Results

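The miR-302 and miR-367 cluster encodes 5 miRNAs, mmu-miR-302a, mmu-miR-302b, mmu-miR-302c, mmu-miR-302d and mmu-miR-367 (written below without the species prefix), and was followed here in EB3 cells, a mouse embryonic stem (ES) cell line of 129/Ola background. The members were chosen by name, as the probes whose systematic name on the array, without its version tag, was that of 1 of these miRNAs. They make up 5 of the 611 mouse miRNAs on the array and are read by 14 probes and 100 spots per array, 20 spots for each miRNA. Each of 6 samples of total RNA, 100 ng labelled with Cy3, was hybridised to its own single-colour array on 1 slide. The titles divide the samples into 3 without Activin, called control, and 3 with Activin, called activin. Per the labels, Activin was used at 10 ng/ml during 3 days of embryoid body formation and a further 15 days on gelatin, and cells were collected on day 18. The same culture text is attached to the control samples, so whether control cells were differentiated without Activin or kept as ES cells is not given in the sources used here. These sources also leave unsaid whether samples of a group were separate cultures, and the spread between them may therefore be technical.

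miRNAs are short RNAs that guide Argonaute proteins to messenger RNAs, mainly through the seed, bases 2 to 8 of the mature strand. The cluster is transcribed as a single precursor from which the hairpins are cut. In the mouse it is known as a marker of the epiblast and of primed pluripotent cells, while the miR-290 cluster, which shares its seed, is abundant in ES cells. Known targets of the miR-302 seed include regulators of the cell cycle and Lefty genes, which encode inhibitors of Nodal and Activin signalling. Activin is a TGF-beta family ligand that maintains primed pluripotency and is also used to direct ES cells to mesendoderm and endoderm.

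The mature sequences are shown because they tell which members, and which other measured miRNAs, share a seed. RefSeq (GRCm38.p6) gave a mature sequence for 4 of the 5 members. They are written from the 5′ end, with the seed in capitals.
miR-302b: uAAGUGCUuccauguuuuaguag
miR-302d: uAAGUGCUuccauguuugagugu
miR-302c: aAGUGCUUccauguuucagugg
miR-367: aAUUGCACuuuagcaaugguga
miR-302b and miR-302d carry the seed AAGUGCU, and the mature miR-302c of RefSeq starts 1 base further along, with the seed AGUGCUU. These 3 sequences share an unbroken run of 16 bases, AAGUGCUUCCAUGUUU. How far a probe for 1 miR-302 member also binds the others was not tested. This includes miR-302a, for which no sequence was at hand to compare. miR-367 carries the unrelated seed AUUGCAC, and its longest run found in miR-302b is 5 bases. On the plus strand of chromosome 3 in this build, the mature miRNAs lie at chr3:127545275-127545297 for miR-302b, chr3:127545406-127545427 for miR-302c, chr3:127545665-127545687 for miR-302d and chr3:127545779-127545800 for miR-367. The gene order is Mir302b, Mir302c, Mir302a, Mir302d and Mir367, in 580 bases. The 5 genes lie within the spans of Larp7, whose RefSeq strand is the opposite one, and of the non-coding gene Gm51018. Exons and introns were not examined here.

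Signal strength differed between arrays. Taking the 59 probes that every array detected, their 75th percentile was 177 intensity units for activin 2 and 249 for control 1, the dim arrays. It was 427 to 616 for the other 4, called the brighter arrays below. The dim arrays also had the most variable replicate spots and lay in the same slide column. No member spot was saturated. As markers of ES cells, 5 of the 14 strands of the miR-290 cluster were detected on at least 1 array and 4 on all 6. The summed intensity of the cluster was 3324 to 3952 in control and 1299 to 3057 with activin. The ranges did not overlap, with activin lower. The sums are unscaled and include the dim arrays, so no size of difference is read from them, and the difference was not tested. Scaled as described below, miR-292-3p, miR-293, miR-294 and miR-295 overlapped between groups, while miR-291a-3p was lower with activin without overlap. Markers of liver and gut (0 of 3 detected on any array), islet (0 of 1), striated muscle (0 of 3) and blood (0 of 3) were not detected, and 3 of 5 mesenchymal, 3 of 5 epithelial, 1 of 2 neural and 1 of 1 endothelial markers were detected on at least 1 array. Outside these lists miR-133b, also known from striated muscle, was detected on 1 activin array. In bulk RNA, fewer cells of a type and less RNA per cell cannot be told apart.

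Detection of the cluster varied with array brightness, and its relation to group depended on the detection rule. Detection of a probe required a share over 0.5 of its usable spots to be flagged well above background by the scanner software, and a miRNA needed 1 such probe. All 5 members were detected on activin 1 and activin 3, 3 members (miR-302a, miR-302c and miR-367) on control 2 and control 3, 1 member (miR-302c) on activin 2, and 0 members on control 1. Member spots above background numbered 39 of 99 on control 2, 36 of 97 on control 3, 47 of 98 on activin 1 and 44 of 95 on activin 3. They numbered 2 of 99 on control 1 and 4 of 90 on activin 2. miR-302b and miR-302d were thus detected on 2 of 3 activin arrays and 0 of 3 control arrays. This difference depends on the detection rule, since the scanner software's own call marked both on 2 arrays of each group. Asking for any spot above background also gave 2 arrays of each group, and a share over 0.5 of all spots gave 0. No share of other miRNAs with the same pattern was computed, so it is a description. Of 130 mouse miRNAs detected on at least 1 array, 53 were detected on all 6, and no member was among those 53.

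miR-302c, the member with the largest difference, was read by 1 bright probe. Its background-subtracted intensity was 18.0 ± 5.74 on control 1, 78.5 ± 10.2 on control 2 and 131 ± 10.13 on control 3 (SD over the 6 spots of each array). It was 240 ± 15.6 on activin 1, 45.7 ± 12.8 on activin 2 and 213 ± 21.7 on activin 3 (SD over 5, 6 and 6 spots). Among the brighter arrays both activin values lay above both control values. The SD over spots is technical noise within an array, and control 2 and control 3 differed from each other by more than that. Unscaled, activin 2 fell below control 2 and control 3, so the groups overlapped. On control 1, 0 of the 6 spots were well above background. Neither of the other 2 probes of miR-302c was detected on any array.

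miR-302a, encoded between miR-302c and miR-302d, gave nearly the same picture. Its brightest probe read 17.6 ± 6.85, 81.4 ± 9.62 and 118 ± 6.32 on control 1 to 3. It read 211 ± 13.0, 32.5 ± 5.36 and 168 ± 19.8 on activin 1 to 3 (SD over 8 to 10 spots). The order of the arrays was that of miR-302c, with activin 1 highest, activin 3 next and control 1 lowest. On activin 2, however, 0 of its 8 usable spots were well above background, and on control 1 only 1 of 10 was. How far the probes of miR-302a and miR-302c bind the same RNA was not tested.

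miR-302b and miR-302d, which share a seed, were dim. The brightest probe of miR-302b read 6.10, 25.1 and 24.7 on control 1 to 3, and 49.3, 3.23 and 47.5 on activin 1 to 3. That of miR-302d read 15.7, 22.8 and 29.3 in control and 55.2, 8.18 and 43.0 with activin. For both miRNAs the 2 brighter activin arrays stood above every control array, while activin 2 was the lowest of all 6. On activin 2 the SD over spots, 4.17 for miR-302b and 10.71 for miR-302d, was larger than the value itself. Only a bound can be set for control, where neither miRNA was detected. Against the lowest signal detected on each control array, the mean of miR-302b with activin was no higher, so no fold is given. For the brightest probe of miR-302d the ratio came to at least 1.03-fold, and for the mean over its probes it was under 1.

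miR-367, which carries the seed of the miR-25 and miR-92 family, had values on the brighter arrays that lay closer together than those of miR-302a and miR-302c. Its brightest probe read 19.2 ± 6.34, 115 ± 8.56 and 127 ± 10.8 on control 1 to 3. It read 131 ± 13.8, 16.5 ± 5.75 and 137 ± 9.15 on activin 1 to 3 (SD over 9 or 10 spots). The brighter activin arrays lay just above the brighter control arrays, and the gap between the closest of them, 131 against 127, was smaller than the SD over spots of 1 array. The dim arrays were alike. Both probes of miR-367 were detected on each of the 4 brighter arrays and on neither dim array, which makes it the member with the most spots above background, 39 of 58 in control and 39 of 56 with activin.

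**Figure D1:**
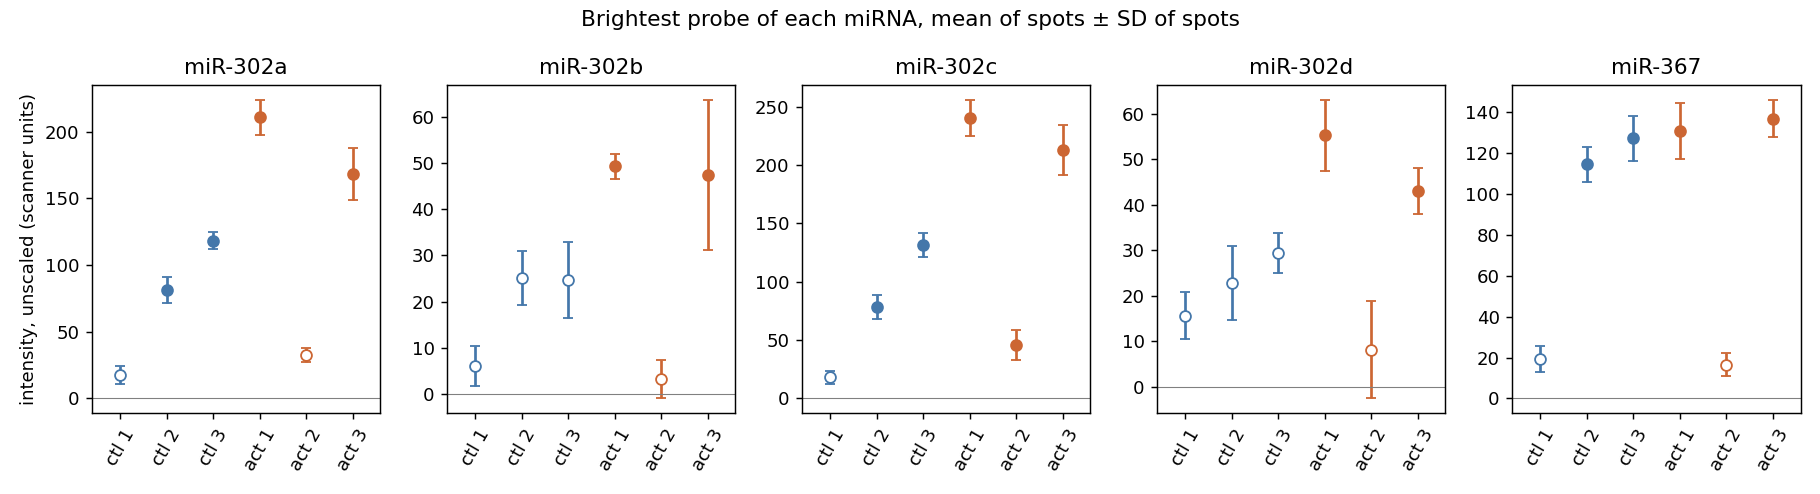
Background-subtracted intensity (unscaled scanner units) of the brightest probe of each of the 5 members on every array; points are means over spots, bars are the SD over spots, and filled points mark arrays where the probe was detected. Control 1 and activin 2 are low in every panel; on the other 4 arrays miR-302a and miR-302c are higher with activin (168 to 240) than in control (78.5 to 131), while miR-367 stays between 115 and 137.

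On the 4 brighter arrays alone, without scaling, miR-302a and miR-302c were brighter with activin and miR-367 was nearly equal in the groups. These 3 members were detected there on every array by their brightest probe, and the ratio of activin to control means was 1.90 for miR-302a, 2.16 for miR-302c and 1.11 for miR-367. Both activin values exceeded both control values for all 3, which was also true of 37.4% of 99 other miRNAs detected on these 4 arrays. Among these 99 the size of the ratio was less common, as their median was 1.13, close to miR-367, and 0 of them (0.00%) reached 1.90. miRNAs not detected on all 4 arrays are outside this share, and miR-126-3p and miR-133b, given below, had larger ratios. With scaling the ratios were 1.64, 1.85 and 0.985. For miR-302b and miR-302d, not detected on control 2 or control 3, the bound from scaled signal on these arrays was at least 1.54-fold and at least 1.56-fold higher with activin. Both count as measured through the activin arrays alone, and no share of other miRNAs was computed for this bound, so it is a description. With the dim arrays included, the bound of the brightest probe was under 1 for miR-302b and 1.03-fold for miR-302d. With 2 arrays in each group these ratios have no test. On the dim arrays miR-302c was detected on activin 2 alone and the other 4 members on neither, so no ratio is given for that pair. miR-126-3p, the endothelial marker, was also brighter with activin on these arrays, at 26.0 and 57.8 intensity units in control and 110 and 74.5 with activin. Its ratio of unscaled means was 2.20. miR-133b stood at 15.3 and 14.4 against 36.4 and 34.7, a ratio of 2.39. Both are named after their values were seen, neither was detected on all 4 arrays, and the part of other cell types in the difference of the cluster was not tested.

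To compare all 6 arrays, each miRNA was averaged over its probes and divided by the 75th percentile of its array. Scaled miR-302c was 0.0351, 0.0504 and 0.117 on control 1 to 3 and 0.167, 0.107 and 0.149 on activin 1 to 3. Means over the 3 arrays of a group were 0.0675 ± 0.0435 (SD) for control and 0.141 ± 0.0307 for activin. Control 3 lay above activin 2, so the groups overlapped, and the exact two-sided permutation test gave p = 0.2, where 0.1 is the smallest value that 3 against 3 arrays allow. Scaled miR-302a was 0.0443, 0.0722 and 0.149 in control and 0.201, 0.108 and 0.163 with activin, with the same overlap of control 3 and activin 2 (exact permutation p = 0.2). Scaled miR-367 was 0.0639, 0.149 and 0.239 in control and 0.193, 0.0755 and 0.203 with activin. Its highest and lowest arrays were both control arrays (exact permutation p = 0.9). Scaled miR-302d overlapped too, with means over 3 arrays of 0.0253 ± 0.00913 for control and 0.0279 ± 0.0153 for activin (± SD, exact permutation p = 0.8). Scaled miR-302b was the only member whose groups did not overlap, at 0.0183 ± 0.00313 for control against 0.0308 ± 0.00392 for activin (± SD of 3 arrays, exact permutation p = 0.1). Of its 6 values, 5 lay under 0.0326, the floor set below, and unscaled its groups overlapped. By the brightest probe of miR-302b alone, the scaled groups overlapped too, with activin 2 lowest (exact permutation p = 0.4). Groups that did not overlap, with activin higher, were found in 9.23% of the 130 miRNAs detected on at least 1 array, against 1 of the 5 members.

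**Figure D2:**
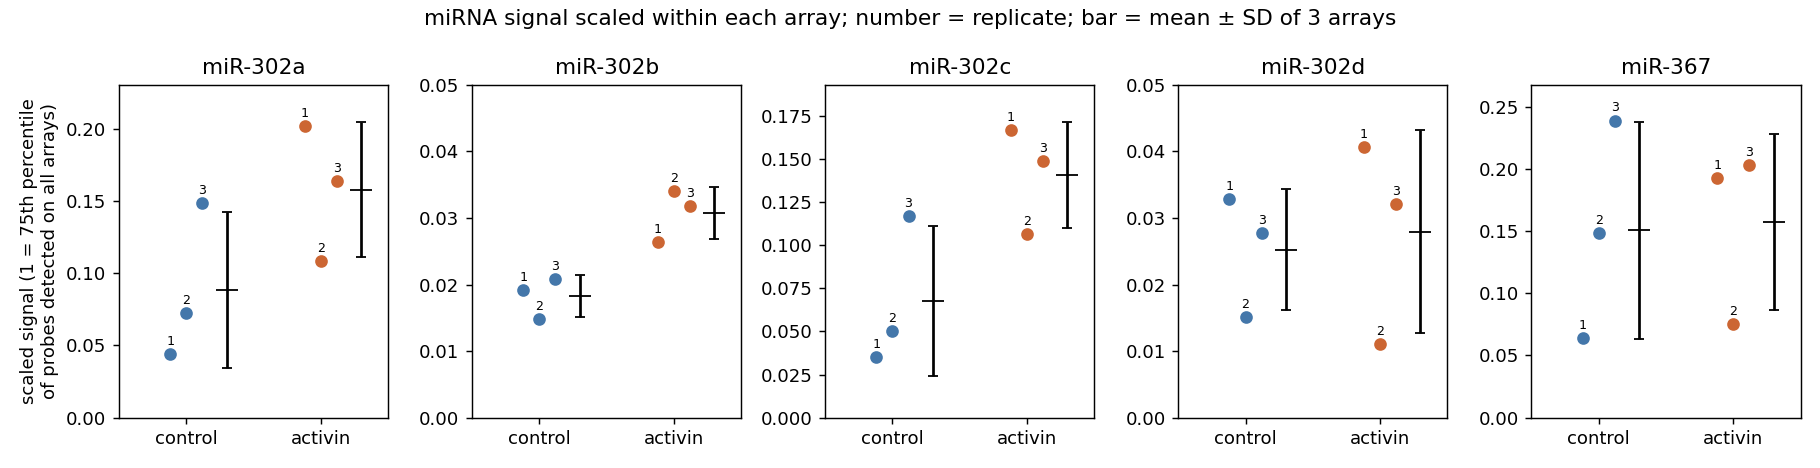
Scaled signal of the 5 members (1 is the 75th percentile of the probes detected on all 6 arrays) by group; numbers are replicates and bars are the mean ± SD of 3 arrays. Control 3 at 0.117 lies above activin 2 at 0.107 for miR-302c, and the control values of miR-367 span from 0.0639 to 0.239.

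With limma on log2 scaled signal, all 5 members could be compared among the 130 miRNAs detected on at least 1 array, a filter that does not depend on the groups. The moderation left each miRNA mostly its own variance (1.05 prior degrees of freedom). It called 0 of the 130 miRNAs (0.00%), with 9 (6.92%) at an unadjusted p under 0.05, none of them a member. miR-302c had the largest member difference at 1.23 (SE 0.49, 95% interval -0.04 to 2.49, adjusted p = 0.465), and miR-302a followed at 0.97 (SE 0.51, interval -0.35 to 2.28, adjusted p = 0.465). Leaving out control 1 took miR-302a to 0.56, and leaving out control 3 took it to 1.43. For miR-367 it was 0.13, with an interval from -1.53 to 1.79 that includes a difference as large as that of miR-302c in either direction. miR-302b (0.02) and miR-302d (0.10) had 5 and 4 of their 6 values set at the floor of 0.0326, so these numbers are neither sizes nor bounds. All 5 differences were above 0, as were 69.2% of the 130. With normexp all 5 were below 0, where the median of the 130 was -0.47. The differences of miR-367 and miR-302d changed sign with other scalings too.

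miR-302c was the single member detected on all 3 arrays of a group and so the only one to enter the comparison of the 79 miRNAs that met this filter. It passed because of the activin arrays alone, as control 1 did not detect it. The filter thus favours a higher value with activin, so the call among the 79 is given as a description and supports nothing. The same log2 difference of 1.23, 2.34-fold, had a smaller SE there (0.30, limma adjusted p = 0.00597), and it was the only call, 1.27% of the miRNAs tested. The moderation gave nearly all weight to the variance common to the 79 miRNAs, with 194 prior degrees of freedom. The call was lost under 20 of the 27 alternatives that gave a value and under 1 more the difference turned below 0, to -0.21 with the normexp background correction. Leaving out any array other than control 3 ended it, with log2 differences between 0.85 without control 1 and 1.25 without activin 2.

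**Figure D3:**
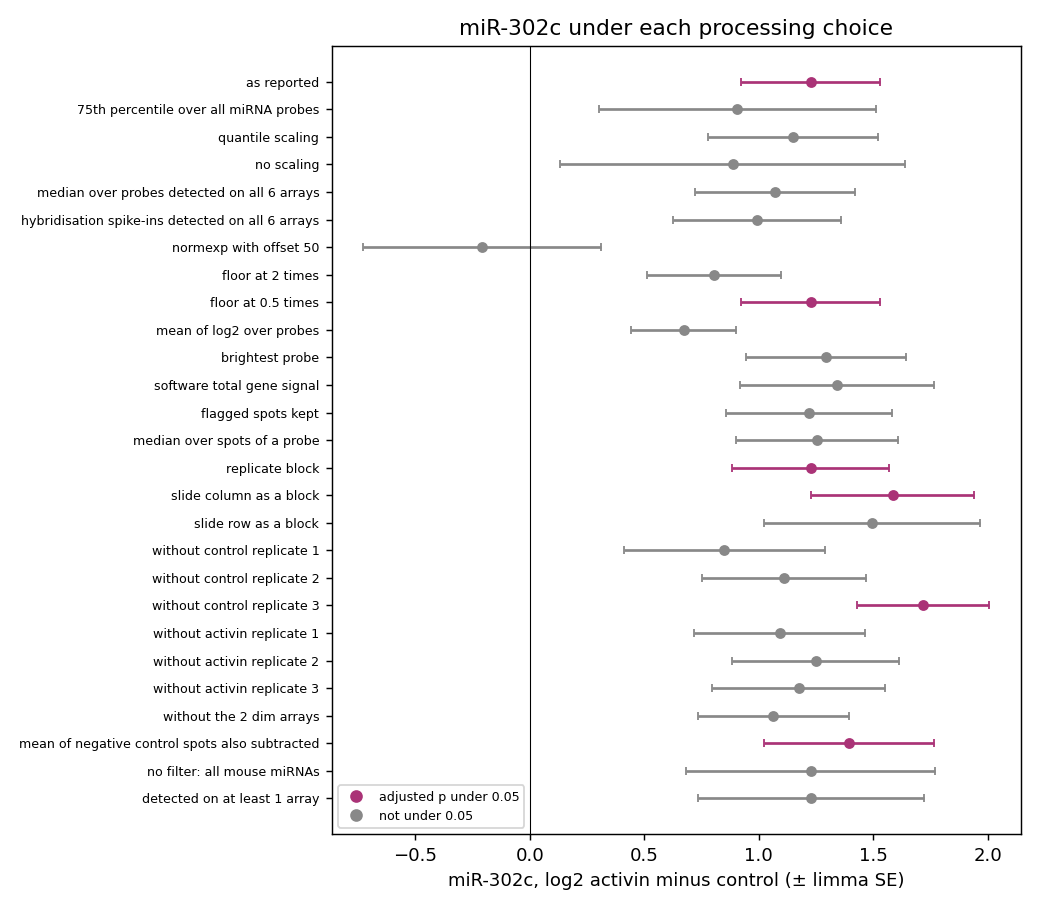
Log2 difference of miR-302c, activin minus control, under the reported processing and each alternative; bars are the limma SE and coloured points have an adjusted p under 0.05. The reported value is 1.23, values run from -0.21 with normexp to 1.72 without control replicate 3, and 6 of the 27 alternatives stay under the threshold, 1 of which, the deposited series table, holds identical values and is not drawn.

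Slide position was shared unevenly between groups, so the differences were also taken within it. In slide column 1, which holds the dim arrays, miR-302c was higher with activin by 1.61 on the log2 scale and miR-302a by 1.29. In column 2 they were higher by 1.56 and 1.18, and in row 1, where activin 1 lay with the 3 controls, by 1.49 and 1.37. miR-367 was higher by 0.24, 0.45 and 0.55 in the same comparisons. Each value rests on 1 activin array and has no test. On control 1, which enters column 1 and row 1, none of these 3 miRNAs was detected, and on activin 2 only miR-302c was, so the values of column 2 alone compare detected signals.

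Ratios between members on the same array need no scaling and were chosen after the values had been seen. Probes bind with different strength, so only the change of a ratio between arrays is read. The log2 ratio of miR-302c to miR-367, each by its brightest probe, was -0.09, -0.55 and 0.05 on control 1 to 3 and 0.88, 1.47 and 0.64 on activin 1 to 3. The groups did not overlap, and the mean was 1.19 higher with activin (exact permutation p = 0.1, the smallest possible, and 0.167 adjusted over the 15 ratios computed). The ratio of miR-302a to miR-367 was -0.12, -0.49 and -0.10 in control and 0.69, 0.98 and 0.30 with activin. It was 0.89 higher, also without overlap (exact permutation p = 0.1, adjusted 0.167). Of these 6 arrays the dim pair measured neither miR-302a nor miR-367, and miR-302c only on activin 2, so 2 of the 6 ratios and the tests that use them rest on signals not above background. On the 4 brighter arrays, where all 3 were detected, the difference was 1.01 for miR-302c and 0.79 for miR-302a, with no test. Both activin ratios exceeded both control ratios there for both miRNAs, as for 16.2% of the 99 other miRNAs, and 0 of the 99 (0.00%) had a difference of 0.79 or more. These 99 leave out miRNAs not detected on all 4 arrays, such as miR-126-3p and miR-133b. Over all 6 arrays, 0 of the 78 other miRNAs in the comparison of 79 (0.00%) had a ratio to miR-367 that was higher on every activin array than on every control array. On the dim arrays that share too rests on a miR-367 signal not above background. It therefore cannot show how particular the separation is to miR-302a and miR-302c. With normexp the differences over 6 arrays were 0.66 for miR-302c and 0.43 for miR-302a, and the groups remained apart.

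For miR-302b and miR-302d, not detected in control, no ratio to miR-367 is read. The log2 ratio of miR-302a to miR-302c was 0.05 and -0.15 on control 2 and control 3 and -0.19 and -0.34 on activin 1 and activin 3, a smaller change than that of either to miR-367.

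**Figure D4:**
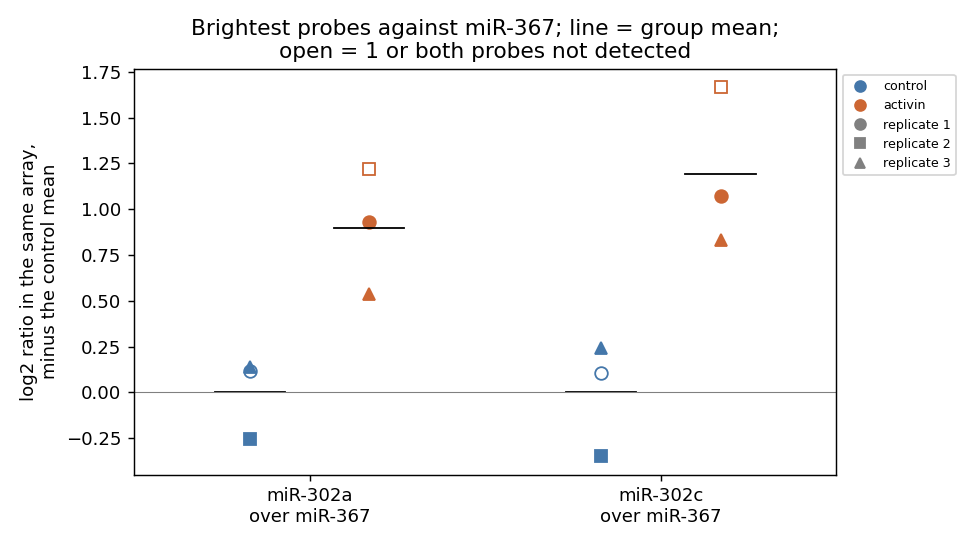
Log2 ratio of the brightest probes of miR-302a and miR-302c to that of miR-367 on the same array, minus the control mean; symbols are replicates, lines are group means of 3 arrays, and open symbols mark the dim arrays, where 1 or both probes were not detected. All 3 activin arrays lie above all 3 control arrays, with mean differences of 0.89 for miR-302a and 1.19 for miR-302c.

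The seeds of the cluster occur in other miRNAs that were measured on the same arrays. RefSeq held 12 mature sequences with a seed of a listed member, of which 8 others were on the array and 5 were among the 79 compared. They are shown in the same form.
miR-291a-3p: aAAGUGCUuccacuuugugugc
miR-294: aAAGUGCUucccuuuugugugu
miR-295: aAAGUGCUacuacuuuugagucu
miR-25: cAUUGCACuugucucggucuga
miR-92a: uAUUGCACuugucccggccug
The first 3 belong to the miR-290 cluster of chromosome 7 and share the seed of miR-302b and miR-302d, which in miR-302c is displaced by 1 base. None of them passed the test (limma). The log2 difference was -0.67 for miR-291a-3p (SE 0.29, adjusted p = 0.263, groups not overlapping), -0.37 for miR-294 and -0.38 for miR-295 (adjusted p = 0.589 each). The estimate of miR-302c lay above 0 and those of these relatives below 0, which is a description without a test. miR-302c entered this comparison through the activin arrays alone. Among the miRNAs detected on at least 1 array, its 95% interval of -0.04 to 2.49 included 0 (limma). Of the 14 strands of the miR-290 cluster 5 were compared and 0 called, with a median log2 difference of -0.43 against a median of 0.17 for the 79 miRNAs. All 5 were below 0, also under each of the 6 other scalings and background corrections and without the dim arrays. In the miR-17 family, whose seed is that of miR-302 displaced by 1 base, 3 of 6 listed members were compared and 0 called, 2 above and 1 below 0, with a median of 0.02 that turned negative under each of these alternatives (-0.03 to -0.21).

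Within arrays, miR-302c gained on each of these miR-290 cluster members. The log2 ratio was higher with activin by 1.97 to miR-291a-3p, 1.74 to miR-294 and 1.72 to miR-295, without overlap (exact permutation p = 0.1 each, adjusted 0.167), though control 1 did not detect miR-302c. These separations were common, since 66.2%, 41.6% and 24.7% of 77 other miRNAs also had a higher ratio to miR-291a-3p, miR-294 and miR-295 on all activin arrays. They are therefore no result about the cluster.

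None of the seed relatives of miR-367 that were compared separated the groups. The log2 difference was 0.31 for miR-25 (SE 0.31, limma adjusted p = 0.619, and -0.19 with normexp) and 0.24 for miR-92a (SE 0.30, limma adjusted p = 0.671). miR-363-3p, with the same seed, was detected too rarely for that comparison and had a log2 difference of 0.17 among the 130 (limma adjusted p = 0.884). miR-32 and miR-92b were on the array and in neither comparison.

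**Figure D5:**
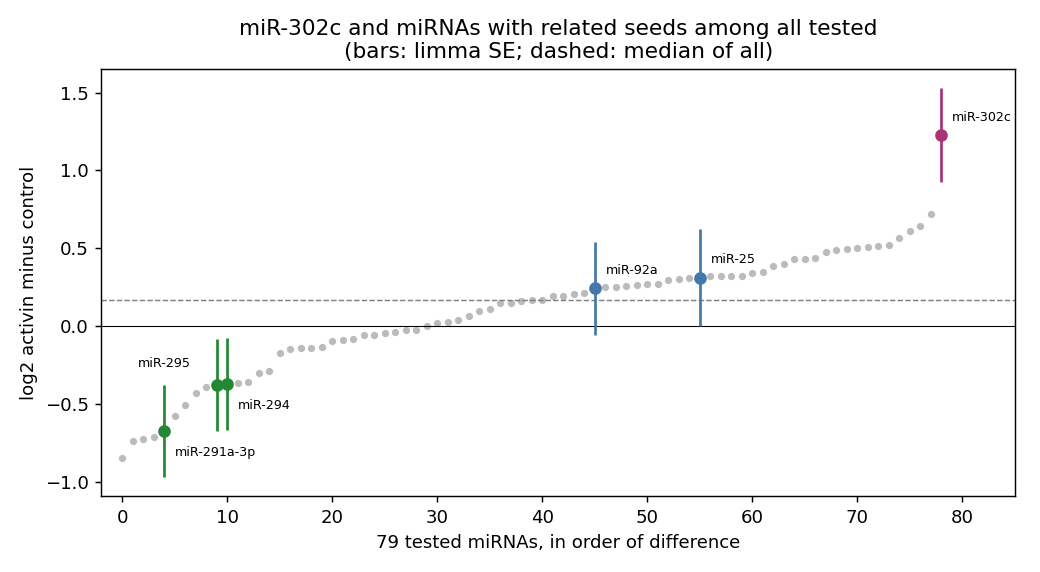
Log2 differences of the 79 compared miRNAs, activin minus control, in ascending order; miR-302c and the 5 miRNAs with a seed of the cluster are coloured with the limma SE as bars, and the dashed line is the median of all, 0.17. miR-302c, which passed the filter through the activin arrays alone, is at 1.23, miR-25 and miR-92a lie near the median, and miR-291a-3p, miR-294 and miR-295 lie below 0.

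Profiles over the 6 arrays were compared by the mean absolute difference of log2 values, each miRNA centred on its own mean. From miR-302c, miR-302a was at 0.13, and 0 of the 78 other compared miRNAs were closer. Binding of the same RNA by the probes of both was not tested. miR-367 was at 0.55, with 25 of the 78 closer, against a median of 0.64 for the 78. miR-302b and miR-302d were not placed, since 5 and 4 of their 6 values lay at the floor. Outside the cluster the closest profiles were miR-431 at 0.33, miR-322 at 0.34, miR-410 at 0.35, miR-15b at 0.40 and miR-300 at 0.43. Their log2 differences were 0.72, 0.61, 0.57, 0.43 and 0.44, with limma adjusted p from 0.216 to 0.529. A miRNA that is itself higher with activin will be close by this measure, and the 6 points share the scaling of each array.

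The passenger strands, cut from the other arm of the hairpins, were not detected. The array carried 12 probes for 3 of them, miR-302a*, miR-302b* and miR-302c*. Probe means lay between -9.96 and 6.02 intensity units over the 6 arrays, and 1 of 355 usable spots was well above background. The negative control spots had means of 2.81 to 5.66 on the same arrays. At these intensities a difference between groups was not detectable.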

How the data were processed

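Deposited scanner files of 6 single-colour Agilent miRNA arrays (3 control, 3 activin) were used. Per the file headers the authors' values are background-subtracted intensities on a linear scale from Feature Extraction 10.7.3.1; the submitters' processing notes name 10.1.1. The deposited series table held the same intensities. The headers name mm9, and the RefSeq sequences are of GRCm38.p6, so no array value was placed by coordinates. Members and lists were chosen with earlier results of these data known.

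Spots flagged as outliers (22 of 600 member spots) were left out. Linear means were taken over spots and then probes, divided by the 75th percentile of the 59 probes detected on all arrays, floored at 0.0326 (the median over arrays of percentile 1 of detected miRNAs) and converted to log2. Groups were compared by lmFit and eBayes of limma 3.58.1 (R 4.3.3, two-sided tests), p-values being adjusted by Benjamini-Hochberg for all miRNAs tested at a threshold of 0.05, among 79 mouse miRNAs detected on all 3 arrays of a group and among 130 detected on at least 1 array. Single values were compared by exact two-sided permutation. The procedure was tested on simulated data with the same spread for every miRNA and no floor, detection filter or differences in array brightness. Such data cannot show how the test behaves for members near background. The number of arrays limits the precision. The miRNAs named are the members, their passenger strands, those with a member's seed and the 5 profiles closest to miR-302c. Alternatives covered scaling, background, floor, probes, spots, filter, slide blocks and each array left out; normexp, planned on mean signals, used the median signal of each spot, the column the files hold.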

Additional observations from a re-analysis of the deposited data

How the results depend on the processing

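The difference of miR-302c among 79 miRNAs, a filter it passed through the activin arrays alone, was 1.23 on the log2 scale (limma adjusted p = 0.00597). It stayed above 0 under 26 of 27 alternatives and under the threshold in 6. These 6 were the floor at 0.5 times (adjusted p = 0.00627), slide column as a block (0.00202), subtraction of negative controls, chosen after seeing the data (0.0255), the series table, the replicate block and leaving out control 3. It was not called with the percentile over all probes (0.91), quantile scaling (1.15), no scaling (0.89), median scaling (1.07), spike-in scaling (0.99), floor at 2 times (0.80), mean log2 over probes (0.67), the brightest probe (1.29), the software's total signal (1.34), flagged spots kept (1.22), median over spots (1.25), slide row as a block (1.49), without the dim arrays (1.06), and with no filter or detection on at least 1 array (1.23 each). It turned to -0.21 with normexp. Leaving out 1 array gave 0.85 to 1.72. In all these settings the number of calls was 0 (0 to 1 on leaving out an array), except with median scaling, where the 1 call was miR-720. Under detection on all 6 arrays miR-302c has no value, and 0 miRNAs were called. The median of all miRNAs, 0.17, became 0.01 with the percentile over all probes, 0.01 with median scaling, -0.07 with spike-ins and -0.31 with normexp; relative to it miR-302c stood at 1.06, and at 0.098 with normexp to 1.06 under the 6 scalings and background corrections.

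Among 130 miRNAs, where miR-302c was not called, miR-302a lay at 0.56 to 1.43 without 1 array. There normexp turned miR-302a to -0.18, miR-302b to -0.50, miR-302c to -0.21, miR-302d to -0.53 and miR-367 to -0.30. The median of the 130 was -0.47 with normexp. miR-367 also turned below 0 with the percentile over all probes (-0.033), quantile (-0.036), median (-0.029) and spike-in scaling (-0.11), total signal (-0.27) and without 1 array (-0.39 to 0.56). miR-302d turned below 0 with median scaling (-0.071), spike-ins (-0.0033), the column block (-0.0058) and without 1 array (-0.0036 without activin 1, up to 0.15). The causes of these changes were not tested. The ratios to miR-367 stayed above 0 under all 11 alternatives run, at 0.43 to 1.07 for miR-302a and 0.66 to 1.37 for miR-302c.

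Samples share only a replicate number: deviations of same-numbered arrays correlated at -0.64, -0.09 and 0.34 over 79 miRNAs, and with the replicate block miR-302c had adjusted p = 0.0365 with 1 call. Low signal limits miR-302b and miR-302d in control and all members on the dim arrays.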
